A study of Mus musculus with 16 samples.

Results

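The 4 ErbB receptor genes Egfr, Erbb2, Erbb3 and Erbb4, together with the adaptor gene Grb7 and the feedback inhibitor gene Errfi1, were followed in mouse mammary organoids, multicellular structures grown in culture from breast cells. These 6 genes were chosen by name, and all 6 were found among the 55487 gene identifiers of the count table and among the 24252 genes that passed the filter on low counts. RNA sequencing covered WT organoids (n = 3, from normal breast), organoids with a PIK3CA mutation (n = 4), organoids with a HER2 mutation (n = 4) and double mutant organoids with both mutations (n = 5), the mutant organoids all from breast tumor. The series title names the alleles as V777L in HER2 and H1047R in PIK3CA, and the labels give neither the promoter nor the method by which a mutation was introduced, nor age or strain. All 16 samples were cultured with 50 ng/ml of mouse epidermal growth factor (EGF), a ligand of Egfr, and with 10% conditioned medium containing Rspo1 and Noggin, so no genotype was measured without an ErbB ligand. The labels do not say whether samples of a genotype came from separate animals, and p-values therefore measure the spread between these samples, which may be technical. In each comparison with WT, genotype and tissue source cannot be told apart.

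ErbB receptors are tyrosine kinases of the cell surface that pair up after binding EGF-type ligands. Erbb2, named HER2 in humans, has no known ligand and acts as the partner of the others, while Erbb3 has a weak kinase and passes its signal to phosphoinositide 3-kinase, the enzyme whose catalytic subunit PIK3CA encodes. Grb7 is an adaptor protein that binds activated ErbB receptors, and its gene lies beside Erbb2 and is co-amplified with it in many human HER2-positive breast cancers. Errfi1, also called Mig6, binds the kinase domain of ErbB receptors and inhibits them. In the mammary gland, Egfr is needed for the growth of ducts, and Erbb4 for alveolar differentiation and lactation.

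In the GRCm38 annotation, Egfr lies at chr11:16752203-16918158 on the plus strand, Erbb2 at chr11:98412470-98437716 on the plus strand, and Grb7 at chr11:98446394-98455373 on the plus strand, with a start 33.9 kb from that of Erbb2. Erbb3 lies at chr10:128567523-128589652 and Erbb4 at chr1:68032186-69108059, both on the minus strand. Errfi1 lies at chr4:150853919-150868892 on the plus strand. All 6 are protein-coding. The end of Erbb2 overlaps the protein-coding gene Mien1 on the opposite strand, but only at chr11:98437708-98437716, against 5210 bases of Erbb2 exon. Strandedness was not given, so reads in that short overlap cannot be assigned to either gene with certainty. The counts were made per gene, and the labels do not say whether reads of an introduced copy would be counted as Erbb2.

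The stretches just upstream of Erbb2 and Erbb4 are shown because these genes moved furthest in opposite directions. They are RefSeq promoter windows on GRCm38.p6, read 5′ to 3′ on the gene's strand, with CpG dinucleotides in capitals. The Erbb2 window, chr11:98412234-98412469 on the plus strand, held 16 CpG dinucleotides in 236 bases at 65.7% GC. The Erbb4 window, chr1:69108060-69108309 on the minus strand, held 12 in 250 bases at 54.0% GC, and the median over 32851 promoter windows of 250 bases was 6 CpG dinucleotides and 52.4% GC.
Erbb2: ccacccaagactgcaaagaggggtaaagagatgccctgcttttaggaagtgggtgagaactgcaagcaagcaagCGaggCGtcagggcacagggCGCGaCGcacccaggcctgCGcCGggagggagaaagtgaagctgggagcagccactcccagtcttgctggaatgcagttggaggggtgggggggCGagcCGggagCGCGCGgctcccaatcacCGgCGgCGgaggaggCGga
Erbb4: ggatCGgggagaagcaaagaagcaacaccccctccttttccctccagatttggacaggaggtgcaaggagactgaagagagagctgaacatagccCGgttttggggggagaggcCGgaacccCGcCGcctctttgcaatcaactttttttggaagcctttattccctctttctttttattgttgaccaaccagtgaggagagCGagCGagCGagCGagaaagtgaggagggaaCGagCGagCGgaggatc
Searched on both strands, neither window held the ETS-type letters GAGGAAGT (in 2.44% of the 32851 windows), the AP-2 letters GCCNNNGGC (13.7%), the forkhead letters GTAAACA (3.17%) or the AP-1 letters TGANTCA (6.75%).

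Total counts ranged from 45545182 to 64168308 per sample, and levels are CPM, counts scaled by edgeR for library size and TMM factors. Epithelial markers were present throughout: Epcam, an epithelial adhesion protein, lay between 479 and 699 CPM in all 16 samples. Myeloid and other immune markers (10 listed genes) had higher sums in WT. They summed to 1039 to 3560 CPM in WT, 610 to 773 in PIK3CA mutant, 272 to 453 in HER2 mutant and 239 to 425 in double mutant samples. Cd14, 1 of the 10, stood at 492 to 600 CPM in WT and 573 to 752 in PIK3CA mutant samples, so the PIK3CA mutant sum rests largely on this gene. It stood at 123 to 372 in HER2 mutant and 183 to 403 in double mutant samples. Lyz2 stood at 405 to 2649 CPM in WT, 0.04 to 7.84 in PIK3CA mutant, 0.12 to 142 in HER2 mutant and 0.04 to 0.34 in double mutant samples. Against WT, 7 of these 10 genes were called lower in the PIK3CA mutant, 5 in the HER2 mutant and 7 in the double mutant. Of 8 fibroblast markers, 1, 2 and 6 were called lower. No gene of either list was called higher, and 4.52%, 10.4% and 11.8% of all tested genes were called. Fibroblast markers summed to 373 to 2001 CPM in WT, 113 to 540 in PIK3CA mutant, 42.4 to 642 in HER2 mutant and 51.1 to 183 in double mutant samples. Basal markers (10 genes) summed to 266 to 975 CPM in HER2 mutant samples, against 516 to 1060 in WT, 526 to 1396 in PIK3CA mutant and 566 to 1043 in double mutant samples. Of the defining myeloid genes, Tyrobp was at 0 in 1 HER2 mutant and 1 double mutant sample, Adgre1 in 1 and 2, and Itgam in 2 and 3, and of the fibroblast genes Lum was at 0 in 1 PIK3CA mutant and 3 double mutant samples. In bulk samples like these, fewer cells of a type and less RNA per cell cannot be told apart, and the part of cell composition in the values below was not tested.

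Erbb2 levels split the genotypes into those with and without the HER2 mutation. Erbb2 stood at 153, 171 and 145 CPM in WT replicates 1 to 3, and at 149, 165, 188 and 171 CPM in PIK3CA mutant replicates 1 to 4. In HER2 mutant replicates 1 to 4, Erbb2 stood at 3385, 2696, 4632 and 3686 CPM. In double mutant replicates 1 to 5, it stood at 1499, 2751, 2705, 1553 and 1649 CPM. Every sample with the HER2 mutation was above every sample without it, with no overlap. The HER2 mutant mean of 3600 ± 803 CPM (SD, n = 4) was 23.0-fold that of WT (a log2 change of 4.53 with an SE of 0.29, adjusted p = 1.17e-06 by edgeR's quasi-likelihood test), and the double mutant mean of 2031 ± 639 CPM (n = 5) was 13.0-fold that of WT (3.70 ± 0.27, adjusted p = 4.87e-06). WT and PIK3CA mutant samples overlapped, with a log2 difference of 0.11 whose 95% interval ran from -0.40 to 0.61.

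**Figure D1:**
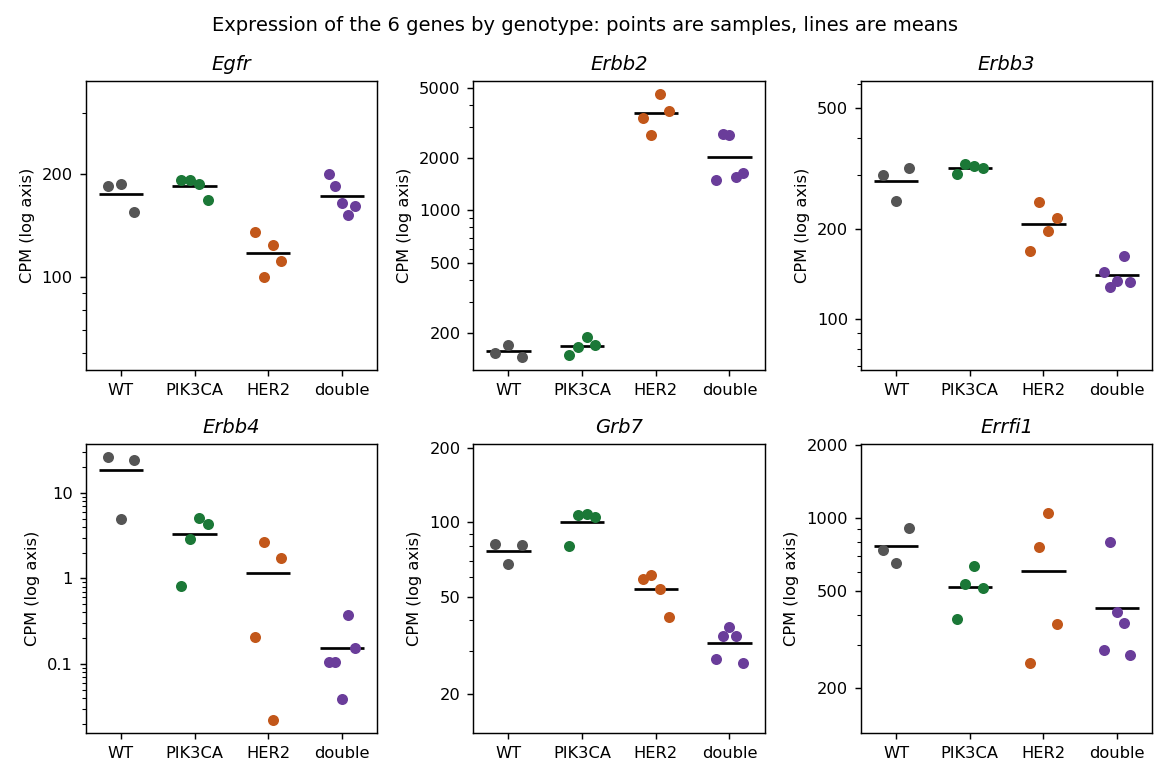
CPM of each of the 6 genes on a log axis, with 1 point per sample, in WT (3), PIK3CA mutant (4), HER2 mutant (4) and double mutant (5) organoids, and a line at each mean. Erbb2 is at 1499 CPM or more in the 9 samples with the HER2 mutation and at 188 CPM or less in the other 7, while Erbb3 and Grb7 are lowest in the double mutant.

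Between the 2 genotypes with a HER2 mutation, Erbb2 was lower in the double mutant (-0.83 ± 0.21 SE on the log2 scale, edgeR adjusted p = 0.0483), and the samples overlapped: double mutant replicates 2 and 3 lay above the lowest HER2 mutant sample. The adjusted p was 0.0571 to 0.105 on leaving out HER2 mutant replicate 1, 3 or 4 or double mutant replicate 1, 4 or 5, and 0.262 in a fit of the 2 genotypes alone. The combined effect of both mutations was compared with the sum of the single effects as an interaction. For Erbb2 this interaction was -0.93 on the log2 scale (95% interval -1.60 to -0.26, edgeR adjusted p = 0.183). Without double mutant replicates 2 and 3, it was -1.31 with an adjusted p of 0.0120.

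Egfr, the receptor of the EGF in the medium, was lower with the HER2 mutation alone and not with both mutations. Egfr stood at 184, 187 and 155 CPM in WT, at 192, 192, 186 and 168 CPM in PIK3CA mutant, at 135, 99.8, 124 and 112 CPM in HER2 mutant and at 200.1, 184, 165, 152 and 161 CPM in double mutant samples, in replicate order. All 4 HER2 mutant samples were below all 12 others, and the other 3 genotypes overlapped. Egfr fell by 0.57 ± 0.13 SE on the log2 scale from WT to HER2 mutant (edgeR adjusted p = 0.0130), a mean 32.9% lower. It was higher in the double mutant than in the HER2 mutant by 0.55 ± 0.12 (edgeR adjusted p = 0.0239) and lower in the HER2 than in the PIK3CA mutant (-0.65 ± 0.12, adjusted p = 0.00904). The double mutant differed from WT by -0.02, with a 95% interval of -0.29 to 0.24. The call against WT had an adjusted p of 0.0608 without WT replicate 1, 0.0506 without WT replicate 2 and 0.106 in a fit of the 2 genotypes alone. The call between HER2 and double mutant had an adjusted p of 0.0519 without HER2 mutant replicate 2, 0.0533 without double mutant replicate 1 and 0.179 in a fit of the 2 genotypes alone. Basal marker sums were also lowest in HER2 mutant replicates 2 to 4 (266, 271 and 391 CPM) but not in replicate 1 (975 CPM), whose Egfr level was the highest of the 4. Against WT, 4 of the 10 basal markers were called lower in the HER2 mutant and none higher (10.4% over all tested genes). Against the PIK3CA mutant, 5 were lower and none higher (4.41%). Krt5 stood at 14.1 to 52.0 CPM in the 4 HER2 mutant samples, replicate 1 included, and at 131 to 345 in WT. Myh11, Cnn1 and Mylk also lay below all WT samples in these 4, and the other basal markers overlapped WT. The part of basal cells in the Egfr difference was not tested.

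Erbb3, the receptor partner that recruits phosphoinositide 3-kinase, was lower with the HER2 mutation and lowest with both mutations. Erbb3 stood at 301, 247 and 317 CPM in WT, at 302, 326, 323 and 318 CPM in PIK3CA mutant, at 169, 244, 196 and 217 CPM in HER2 mutant and at 143, 128, 134, 162 and 133 CPM in double mutant samples. The 5 double mutant samples were below all HER2 mutant samples, and these were below all WT and PIK3CA mutant samples. The double mutant mean was 51.4% below WT (-1.04 ± 0.13 SE on the log2 scale, edgeR adjusted p = 0.000208) and 55.9% below the PIK3CA mutant (-1.18 ± 0.12, adjusted p = 0.000332). These calls, and that between the HER2 and PIK3CA mutants (-0.62 ± 0.13, adjusted p = 0.0134), held in each alternative run. Erbb3 also fell by 0.48 ± 0.14 from WT to HER2 mutant (edgeR adjusted p = 0.0355) and by 0.56 ± 0.12 from HER2 to double mutant (adjusted p = 0.0239). The call against WT had an adjusted p of 0.0661 to 0.179 without WT replicate 1 or 3 or HER2 mutant replicate 1 or 3, 0.0594 with upper-quartile scaling, 0.0817 without the filter on low counts and 0.164 in a fit of the 2 genotypes alone. The call between HER2 and double mutant had 0.0545 without HER2 mutant replicate 2, 0.0633 without double mutant replicate 5, 0.0538 without double mutant replicates 2 and 3 and 0.168 in a fit of the 2 genotypes alone. The Erbb3 interaction was -0.70 (95% interval -1.09 to -0.31, edgeR adjusted p = 0.0819), and 0.0320 without HER2 mutant replicate 1.

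Erbb4, a neuregulin receptor, was scarce in every genotype, with the lowest mean in the double mutant. Erbb4 stood at 26.3, 4.90 and 24.2 CPM in WT, at 0.81, 2.87, 5.14 and 4.34 CPM in PIK3CA mutant, at 0.21, 2.64, 0.02 and 1.74 CPM in HER2 mutant and at 0.11, 0.10, 0.04, 0.37 and 0.16 CPM in double mutant samples. The counts behind these levels were 245 to 1504 in WT, 51 to 243 in PIK3CA mutant, 1 to 137 in HER2 mutant and 2 to 20 in double mutant samples. HER2 mutant and double mutant samples overlapped each other and were below all WT samples, while 1 PIK3CA mutant sample exceeded the low WT replicate 2. Between double and HER2 mutant the log2 difference was -2.87 ± 0.93 SE and did not pass the test (edgeR adjusted p = 0.108, and 0.0354 without HER2 mutant replicate 3). DESeq2 gave an adjusted p of 0.0439. The Erbb4 mean was 93.8% lower than WT in the HER2 mutant (95% interval of the log2 fold change -6.10 to -1.89, edgeR adjusted p = 0.0194). In the double mutant it was 99.2% lower, a fall of 6.87 ± 1.05 SE on the log2 scale (adjusted p = 0.000667). The call in the HER2 mutant had an adjusted p of 0.0647 without WT replicate 1, 0.0718 without WT replicate 3 and 0.114 in a fit of the 2 genotypes alone, and that in the double mutant held in each alternative. The difference between PIK3CA mutant and WT was -2.49 (edgeR adjusted p = 0.168, and 0.0340 in a fit of the 2 genotypes alone). That between double and PIK3CA mutant was -4.37 ± 0.95 (edgeR adjusted p = 0.0499). These samples did not overlap, but the call was lost on leaving out any 1 of the 9, with an adjusted p of 0.0668 to 0.176. Myeloid marker sums were also lower in each mutant genotype than in WT, as given above. Fibroblast sums overlapped WT in the PIK3CA and HER2 mutants and were below WT in the double mutant. The part of these cells in the Erbb4 differences was not tested. Alveolar markers (8 genes), which mark the cells of milk production, summed to 3597 to 5491 CPM in WT, 9157 to 14109 in PIK3CA mutant, 12442 to 37805 in HER2 mutant and 6102 to 21524 in double mutant samples. The casein gene Csn3 had the highest levels (3049 to 4877 CPM in WT and 3521 to 20558 in mutant samples), with the casein gene Csn2 (1304 to 22709 CPM) and Ltf, the lactoferrin gene (86.0 to 7383 CPM), adding to the sum in the HER2 mutant. Against WT, 0 of the 8 were called in the PIK3CA mutant, 4 in the HER2 mutant and 3 in the double mutant, all higher. The shares called over all tested genes were 4.52%, 10.4% and 11.8%. Lalba, a milk protein gene, stood at 52.6 to 115 CPM in WT and at 3.50 to 22.3 in PIK3CA mutant samples, and did not pass the test there (edgeR adjusted p = 0.186). It was 1 of 3 markers at an unadjusted p under 0.05 in that comparison, with Csn3 and Ltf. WT replicate 2, the lowest WT sample in Erbb4, had the highest fibroblast sum of the WT samples (2001 CPM) and the lowest myeloid sum (1039 CPM).

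Compared per kilobase of exon, the only scale on which levels of different genes can be set side by side, Erbb3 led the receptors without the HER2 mutation and Erbb2 led with it. In WT, Erbb3 stood at 47.9 ± 6.13 CPM per kilobase (SD, n = 3), Erbb2 at 30.0 ± 2.52, Egfr at 15.5 ± 1.59 and Erbb4 at 1.49 ± 0.95. The PIK3CA mutant had the same order, with Erbb3 at 52.8 ± 1.77, Erbb2 at 32.3 ± 3.10, Egfr at 16.3 ± 0.99 and Erbb4 at 0.27 ± 0.15 (n = 4). Neighbours in this order did not overlap in any sample of these genotypes. Erbb2 made up 31.7 ± 3.85% of the receptor reads per kilobase in WT and 31.7 ± 1.81% in the PIK3CA mutant, and 93.7 ± 1.73% in the HER2 mutant (n = 4) and 90.4 ± 2.85% in the double mutant (n = 5). The ratio of Erbb2 to Erbb3 per kilobase was 0.64 ± 0.14 in WT, 0.61 ± 0.05 in the PIK3CA mutant, 20.7 ± 6.16 in the HER2 mutant and 17.1 ± 6.46 in the double mutant. The ratio overlapped between the HER2 genotypes, at 12.7 to 27.3 and 11.1 to 24.8, with Erbb2 and Erbb3 both lower in the double mutant.

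**Figure D2:**
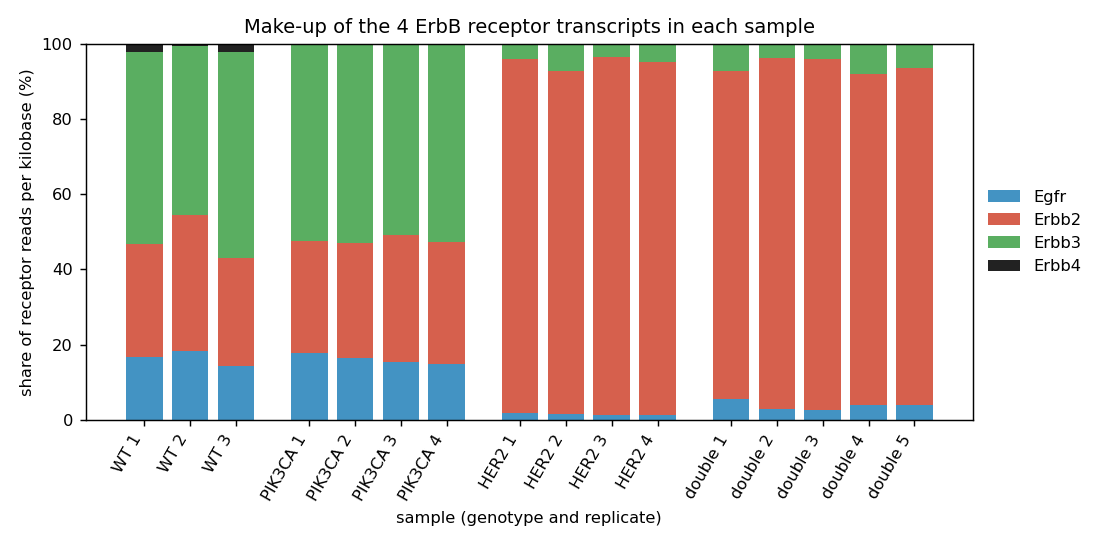
Share of each ErbB receptor in the summed receptor reads per kilobase of exon, in percent, with 1 bar per sample. Erbb2 takes 28.9 to 36.1% of the bar in WT samples and 87.4 to 95.3% in samples with the HER2 mutation.

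Grb7, the adaptor gene next to Erbb2, was lower in the double mutant than in each of the other genotypes. Grb7 stood at 81.9, 67.6 and 80.7 CPM in WT, at 80.3, 107, 108 and 105 CPM in PIK3CA mutant, at 58.7, 60.9, 53.5 and 41.4 CPM in HER2 mutant and at 27.9, 34.6, 37.6, 34.4 and 26.9 CPM in double mutant samples. All double mutant samples were below all HER2 mutant samples, and these were below all WT and PIK3CA mutant samples. Grb7 fell by 1.25 ± 0.15 SE on the log2 scale from WT to double mutant (edgeR adjusted p = 0.000208), by 1.63 ± 0.14 from PIK3CA to double mutant (adjusted p = 6.79e-05) and by 0.90 ± 0.15 from PIK3CA to HER2 mutant (adjusted p = 0.00492). It fell by 0.73 ± 0.14 from HER2 to double mutant (edgeR adjusted p = 0.0152), a call held on leaving out any 1 sample but not in a fit of the 2 genotypes alone (adjusted p = 0.111). The HER2 mutant differed from WT by -0.52 ± 0.16, which missed the threshold (edgeR adjusted p = 0.0532, and 0.0422 without HER2 mutant replicate 2). The PIK3CA mutant differed from WT by 0.38 (adjusted p = 0.239).

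For Grb7 the 2 mutations together gave a lower level than the sum of the single changes, with an interaction of -1.11 ± 0.22 on the log2 scale (95% interval -1.58 to -0.65, edgeR adjusted p = 0.0242). The PIK3CA mutant differed from WT by 0.38, and the double mutant from the HER2 mutant by -0.73. WT alone came from normal breast, so tissue source cannot be told apart from genotype in the 0.38 or in the interaction. The adjusted p of this interaction was 0.0522 to 0.0772 on leaving out any 1 of the 3 WT samples or PIK3CA mutant replicate 2, 3 or 4, with values between -1.17 and -1.03. None of the other 5 genes passed the test of the interaction in the edgeR fit, though 3 of them had an unadjusted p under 0.05, and 1.06% of all tested genes passed. DESeq2 called 2 of the 6, Grb7 and Erbb3.

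Errfi1, the inhibitor that ErbB and other growth factor signals induce as feedback, did not pass the edgeR test in any comparison, with a lowest unadjusted p of 0.0513. Errfi1 stood at 738, 653 and 909 CPM in WT, at 387, 537, 633 and 518 CPM in PIK3CA mutant, at 253, 764, 1046 and 369 CPM in HER2 mutant and at 286, 798, 412, 371 and 275 CPM in double mutant samples. The HER2 mutant samples spanned 4.14-fold and included both the highest and the lowest level of the series. All 4 PIK3CA mutant samples were below all 3 WT samples, with a log2 difference of -0.56 (95% interval -1.46 to 0.33, edgeR adjusted p = 0.559). The double mutant differed from WT by -0.84, with a 95% interval of -1.68 to 0.01 (edgeR adjusted p = 0.187), and the HER2 mutant by -0.33, with an interval of -1.23 to 0.56. Each interval includes both no change and a fall of more than 1 on the log2 scale.

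Counted by comparison, no gene of the 6 was called by edgeR between PIK3CA mutant and WT, where 4.52% of all tested genes were. Erbb4 and Grb7 had an unadjusted p under 0.05 there (2 of 6), and DESeq2 also called 0. Between HER2 mutant and WT, 4 of 6 were called (1 higher, 3 lower) against 10.4% of all genes, and between double mutant and WT 4 of 6 (1 higher, 3 lower) against 11.8%. The same split of 1 higher and 3 lower was found between HER2 and PIK3CA mutant (4.41% of all genes), between double and PIK3CA mutant (0.672%) and between double and HER2 mutant (2.50%). The count between HER2 mutant and WT was 1 without WT replicate 1 and 2 without WT replicate 3, and that between double and HER2 mutant was 2 without HER2 mutant replicate 2 or double mutant replicate 1 or 5. In fits of the 2 genotypes alone, these counts were 1 and 0. The count between double and PIK3CA mutant was 3 on leaving out any 1 of the 9 samples. These comparisons share samples and are not independent of each other. The gene that was higher was Erbb2 in each comparison except that of double with HER2 mutant, where it was Egfr.

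**Figure D3:**
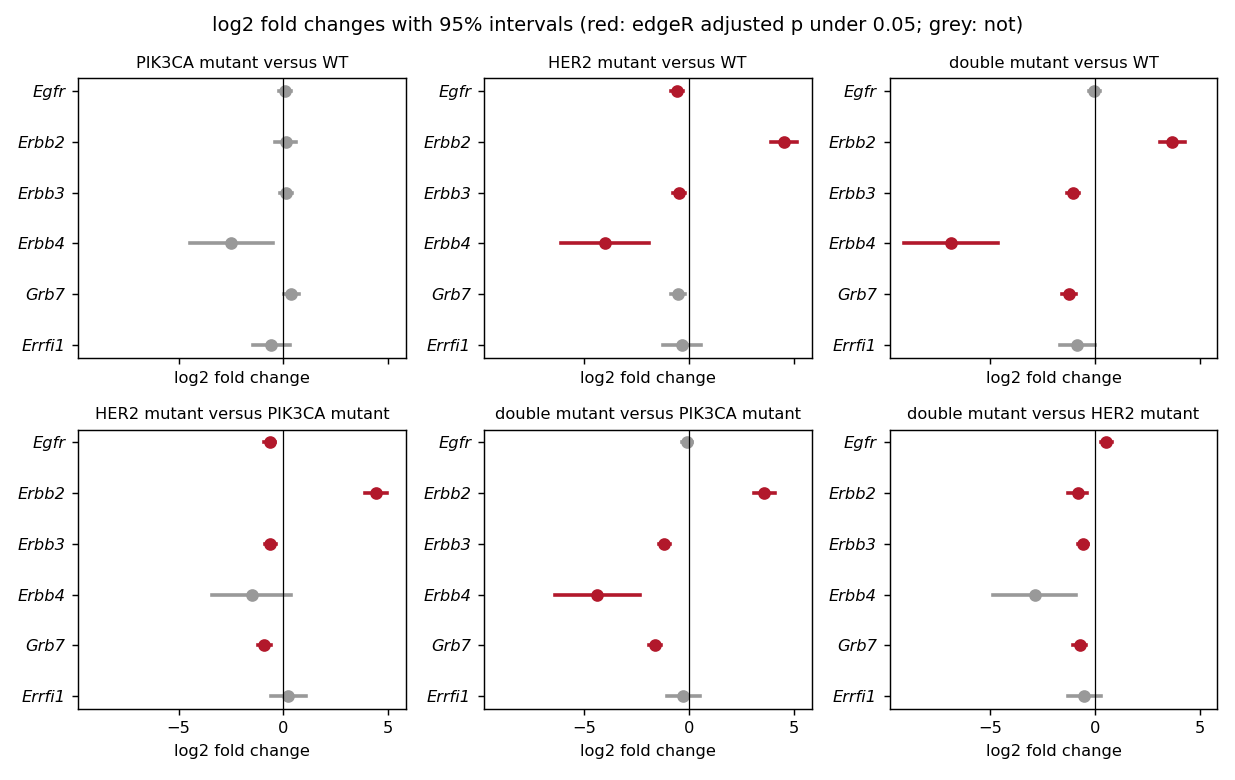
log2 fold change (points) with 95% intervals (lines) of the 6 genes in the 6 pairs of genotypes, red where the edgeR adjusted p is under 0.05. No gene is red between PIK3CA mutant and WT, and Erbb2 is the only red gene to the right of 0 in the 4 panels where 1 of the genotypes has the HER2 mutation.

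Genes around Erbb2 on chromosome 11 were also compared between genotypes. Of 22 listed neighbours within 363 kb, 20 passed the filter on low counts: Cdk12, Neurod2, Ppp1r1b, Stard3, Tcap, Pnmt, Pgap3, Mien1, Ikzf3, Zpbp2, Gsdma, Gsdma2, Ormdl3, Psmd3, Csf3, Med24, Thra, Nr1d1, Med1 and Fbxl20. The nearest genes on either side, Mien1 and Pgap3, differed from WT by 0.09 ± 0.20 and -0.56 ± 0.22 on the log2 scale in the HER2 mutant, and neither passed the test. Between HER2 mutant and WT, 4 of the 20 were higher (Gsdma, Gsdma2, Neurod2 and Ikzf3) and 1 lower (Thra, a thyroid hormone receptor, -0.70 ± 0.20, edgeR adjusted p = 0.0333), where 10.4% of all tested genes were called. Between double mutant and WT, Gsdma and Gsdma2 were higher, 2 of 20 where 11.8% of all tested genes were called. The median log2 fold change of the 20 against WT was 0.39 in the HER2 mutant and 0.09 in the double mutant, against 0.03 and 0.01 over all tested genes. This differed with level. The 13 listed neighbours at 5 CPM or more had a median log2 ratio to the WT mean of 0.56, -0.07, 0.19 and -0.02 in HER2 mutant replicates 1 to 4. The 9 listed under 5 CPM had 1.29, 1.08, 1.67 and 1.45. In double mutant samples the medians were -0.11 to 0.03 and -0.09 to 1.54. Ppp1r1b was lower in the double than in the HER2 mutant (-1.30 ± 0.29, edgeR adjusted p = 0.0292, and 0.0567 to 0.0700 without HER2 mutant replicate 1 or double mutant replicate 1, 2, 4 or 5, and 0.112 in a fit of the 2 genotypes alone). The count of 5 between HER2 mutant and WT ranged from 2 to 7 on leaving out single samples, being 2 without any 1 of the WT samples, 3 without HER2 mutant replicate 3 and 7 without HER2 mutant replicate 1. It was 2 in a fit of the 2 genotypes alone.

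Gsdma and Gsdma2, gasdermin genes that lie 252 and 234 kb from the Erbb2 start, were near 0 without the HER2 mutation. Gsdma had 2, 4 and 2 counts in WT, 6, 0, 0 and 1 in PIK3CA mutant, 203, 56, 113 and 82 in HER2 mutant and 35, 66, 77, 35 and 36 in double mutant samples. Gsdma2 had 1, 2 and 1 counts in WT, 0 in all PIK3CA mutant, 19, 17, 17 and 21 in HER2 mutant and 9, 13, 32, 8 and 14 in double mutant samples. Neither gene overlapped between samples with and without the HER2 mutation. Their calls between HER2 mutant and WT (edgeR adjusted p = 0.00111 for Gsdma and 0.00580 for Gsdma2) held in each alternative. These paralogs resemble each other, and reads may be split between them. Neurod2 had 1 to 5 counts in WT and 12 to 28 in the HER2 mutant, Ikzf3 had 3 to 7 and 14 to 27, so all 4 higher neighbours were genes of very low level, under 5 CPM on average.

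**Figure D4:**
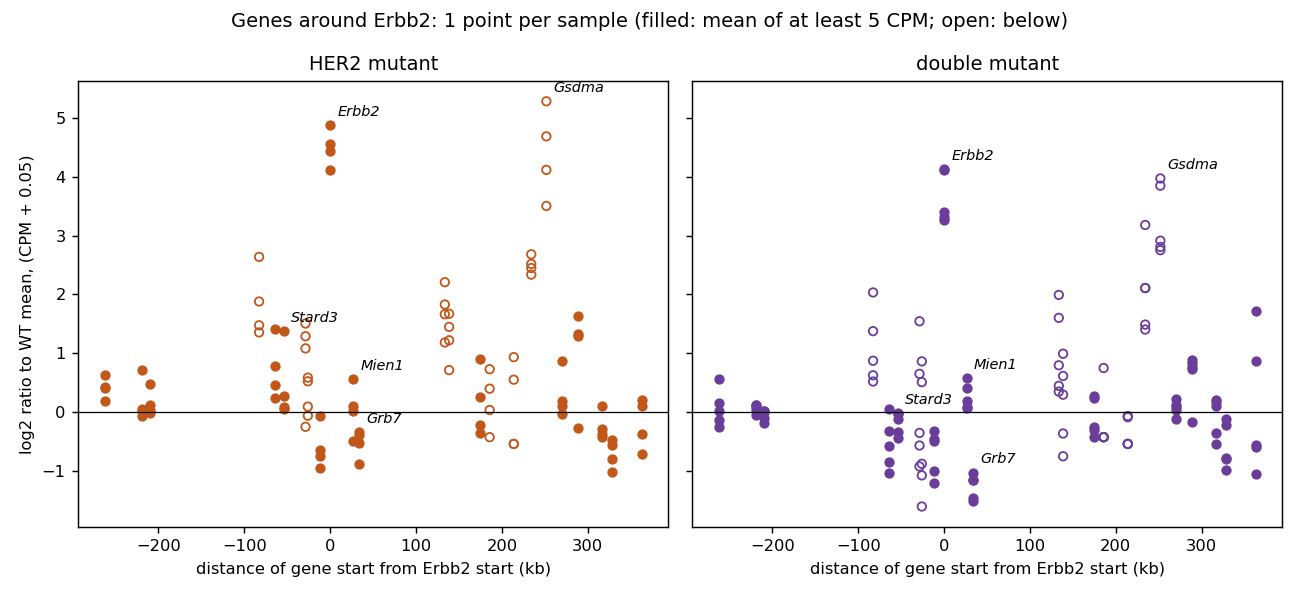
log2 ratio of CPM to the WT mean (0.05 added) for Erbb2, Grb7 and their 22 listed neighbours by distance of the gene start from that of Erbb2 in kb, with 1 point per sample and open points for genes under 5 CPM on average. Erbb2 and the open points of Gsdma stand highest, and Grb7 lies below 0 in both HER2 genotypes.

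HER2 mutant replicate 1 stood apart across a wider stretch of the chromosome. Among genes of at least 5 CPM, its median log2 ratio to the WT mean was 0.43 within 0.5 Mb of the Erbb2 start (21 genes), 0.75 from 0.5 to 1 Mb (16 genes), 0.96 from 1 to 2 Mb (26 genes) and 0.51 from 2 to 5 Mb (98 genes). Further away on the chromosome it was -0.09 (741 genes), and on other chromosomes -0.04 (10371 genes). The other 15 samples lay between -0.28 and 0.32 in the windows within 5 Mb. Erbb2 in this replicate (3385 CPM) was not the highest of its genotype, and leaving out any 1 sample gave a log2 fold change of Erbb2 between HER2 mutant and WT of 4.38 to 4.64.

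**Figure D5:**
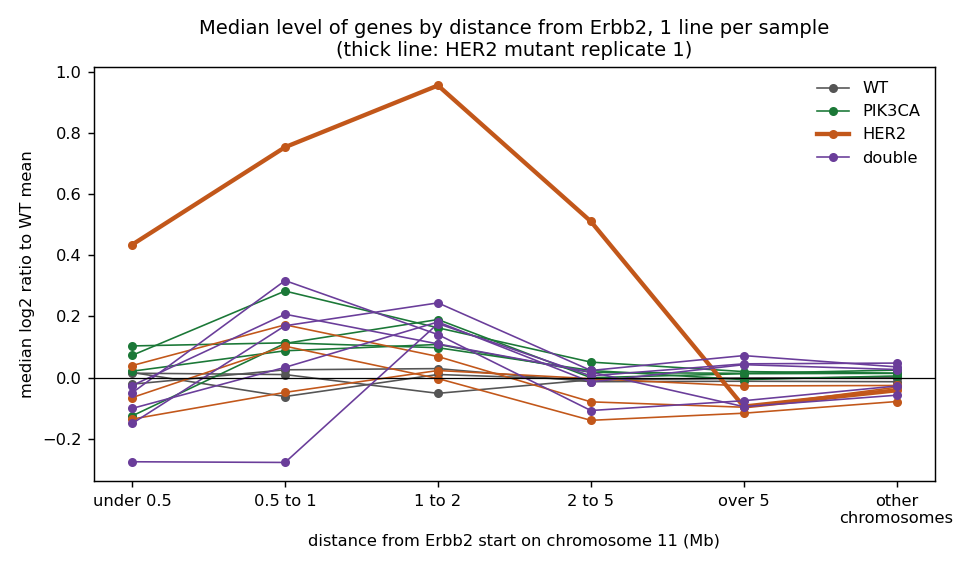
Median log2 ratio to the WT mean of genes of at least 5 CPM, by distance from the Erbb2 start on chromosome 11 in Mb, with 1 line per sample. The thick line, HER2 mutant replicate 1, rises to 0.96 at 1 to 2 Mb and the other lines stay between -0.28 and 0.32.

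Among the receptors' ligand genes, 10 of 11 listed passed the filter. Areg (amphiregulin, a ligand of Egfr) rose from 1.28 to 1.63 CPM in WT to 3.21 to 10.9 in the HER2 mutant (2.24 ± 0.45 SE on the log2 scale, edgeR adjusted p = 0.00613) and 6.38 to 15.9 in the double mutant (2.94 ± 0.45, adjusted p = 0.000693). Nrg4, a ligand of Erbb4, fell in all mutants: by 1.90 ± 0.27 in the PIK3CA mutant, 1.51 ± 0.27 in the HER2 mutant and 1.58 ± 0.26 in the double mutant (edgeR adjusted p = 0.00123, 0.00351 and 0.000978, with 0.0682 for the HER2 mutant in a fit of the 2 genotypes alone). Nrg1, a ligand of Erbb3 and Erbb4, rose between WT and PIK3CA mutant by 1.81 ± 0.36 (edgeR adjusted p = 0.00741, and 0.0579 without WT replicate 3). Ereg, another ligand of Egfr, rose in the double mutant by 3.09 ± 0.80 (edgeR adjusted p = 0.0193, 0.0817 without WT replicate 1, 0.105 without WT replicate 3 and 0.0911 without double mutant replicates 2 and 3). In all, 1 ligand gene rose and 1 fell in each single mutant against WT, and 3 rose and 1 fell in the double mutant. These were 2, 2 and 4 of 10 genes, where 4.52%, 10.4% and 11.8% of all tested genes were called. The median log2 fold change of the list against WT was 0.41 in the PIK3CA mutant, 0.77 in the HER2 mutant and 0.76 in the double mutant, against -0.03, 0.03 and 0.01 over all tested genes.

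All 18 listed receptor adaptor genes passed the filter on low counts. Between HER2 mutant and WT, 3 fell and none rose, where 10.4% of all tested genes were called, with a median log2 fold change of -0.06 over the list and 0.03 over all tested genes. Against WT, 1 was lower in the PIK3CA mutant and 2 in the double mutant, where 4.52% and 11.8% of all tested genes were called, with list medians of 0.04 and 0.00. Between double and HER2 mutant 1 was higher and none lower, where 2.50% of all tested genes were called, with a list median of 0.10. Gab1, a docking protein that links receptors to phosphoinositide 3-kinase, fell by 0.91 ± 0.12 SE in the HER2 mutant (edgeR adjusted p = 0.000735) and by 0.67 ± 0.12 in the double mutant (adjusted p = 0.00162) against WT. Its levels were 146 to 183 CPM in WT, 140 to 156 in PIK3CA mutant, 71.4 to 95.4 in HER2 mutant and 91.4 to 107 in double mutant samples, so both HER2 genotypes were below both others. Shc1, an adaptor that couples receptors to Ras, stood at 139 to 163 CPM in WT, 94.6 to 106 in PIK3CA mutant, 69.6 to 99.7 in HER2 mutant and 99.1 to 135 in double mutant samples, so all mutant samples were below all WT samples. It fell by 0.79 ± 0.14 in the HER2 mutant (edgeR adjusted p = 0.00349) and by 0.58 ± 0.14 in the PIK3CA mutant (adjusted p = 0.0256, but 0.0533 to 0.110 on leaving out any 1 of the WT samples or PIK3CA mutant replicate 1, 2 or 4, and 0.0670 without the filter on low counts), while the double mutant differed by -0.37 (adjusted p = 0.0886). Its interaction was 1.00 ± 0.19 (edgeR adjusted p = 0.0202, and up to 0.0714 without WT replicate 3 or PIK3CA mutant replicate 2). Grb14, a relative of Grb7, was higher in the double than in the HER2 mutant by 1.84 ± 0.40 (edgeR adjusted p = 0.0256), a direction opposite to that of Grb7. Its adjusted p was 0.0528 without double mutant replicate 1, 0.0518 without replicate 4 and 0.153 in a fit of the 2 genotypes alone.

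Of 16 listed negative regulators of the receptors, 2 fell between HER2 mutant and WT and none rose, where 10.4% of all tested genes were called, with a median log2 fold change of -0.12 over the list. Lrig3 and Lrig1, membrane proteins of a family whose best known member promotes the breakdown of ErbB receptors, fell by 1.14 ± 0.18 SE (edgeR adjusted p = 0.00159) and 0.67 ± 0.16 (adjusted p = 0.0139, and for Lrig1 0.0555 without WT replicate 1, 0.0876 without replicate 3 and 0.0652 in a fit of the 2 genotypes alone). Lrig3 also fell by 0.63 ± 0.17 in the double mutant (edgeR adjusted p = 0.0236, and up to 0.106 without any 1 of the WT samples or double mutant replicate 2). Socs5, which promotes the breakdown of Egfr, rose by 0.80 ± 0.14 in the PIK3CA mutant (adjusted p = 0.00311) and by 0.48 ± 0.13 in the double mutant against WT (adjusted p = 0.0276, and up to 0.168 without WT replicate 2 or 3 or double mutant replicate 2 or 3). The double mutant call was also lost without the filter on low counts and in a fit of the 2 genotypes alone. It was lost as well without double mutant replicates 2 and 3 together. Of 8 genes listed for ERBB2 stability and membrane retention, Muc4, a mucin that binds ERBB2, and Tob1, a protein named as a transducer of ERBB2, were higher in each mutant than in WT. Against WT, 3 of the 8 were called in the PIK3CA mutant, 2 in the HER2 mutant and 2 in the double mutant, all higher. Over all tested genes, 4.52%, 10.4% and 11.8% were called. Tob1 rose by 0.81 to 0.85 on the log2 scale in the 3 comparisons (edgeR adjusted p = 0.0119 in the PIK3CA, 0.00960 in the HER2 and 0.00384 in the double mutant), with 0.0928 and 0.0679 for the first 2 without WT replicate 3 and 0.0786 for the HER2 mutant in a fit of the 2 genotypes alone. Muc4 stood at 0.25 to 3.52 CPM in WT and at 30.4 to 51.6, 18.7 to 171 and 7.57 to 109 CPM in PIK3CA, HER2 and double mutant samples. Its rise passed the edgeR test in each (adjusted p = 0.0256, 0.00860 and 0.0172), with 0.0549 to 0.135 in the PIK3CA mutant without WT replicate 1 or 3 or PIK3CA mutant replicate 1, 0.0855 to 0.0866 in the double mutant without WT replicate 1 or 3, and 0.0523 in the HER2 mutant in a fit of the 2 genotypes alone. Erbin, which binds ERBB2, was at 200.3 to 293 CPM in the HER2 mutant, below its 481 to 525 CPM in the PIK3CA mutant (-0.90 ± 0.12, edgeR adjusted p = 0.00133). Neither Erbin nor any other gene of this list was called lower in the HER2 mutant than in WT.

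For each of the 6 genes, the 3 genes of most similar pattern were taken by Pearson's r of log2 CPM over the 16 samples, among up to 11743 genes. These values were chosen as the highest and describe the pattern only, and much of each r comes from the genotype means. For Erbb3 they were Mturn (0.95), Grb7 (0.93) and Zfp874b (0.93), and for Grb7 they were Ypel3 (0.95), Tshz1 (0.94) and Erbb3 (0.93), so Erbb3 and Grb7 named each other. With genotype means removed, the r between Erbb3 and Grb7 was 0.17. For Erbb2 they were Doc2g (0.95), Topbp1 (0.92) and Chek1 (0.90), with 0.22 to 0.30 after removal of the means. For Egfr they were Cdc42ep3 (0.91), Serpinb5 (0.89) and Rasl11b (0.89), and for Erbb4 Grik3 (0.94), Mdc1 (0.92) and Zfp704 (0.91). For Errfi1 they were Vdr, Tcte2 and Tprn (0.88, 0.88 and 0.87), whose r stayed at 0.85 to 0.86 without the genotype means, so these genes followed Errfi1 among samples of the same genotype.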

How the data were processed

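RNA was sequenced in 16 mouse mammary organoid samples, grouped by the genotype in their labels. The authors deposited whole-number read counts per Ensembl gene and a normalized signal table, which on checking was each count divided by its sample's DESeq2 size factor (largest relative difference 5.49e-10). Per the labels' protocols, libraries were made from 1.3 ug of total RNA with a SMARTer kit. The submitters' processing notes name bcl2fastq 2.20, STAR 2.0.4b, Subread featureCounts 1.4.5, DESeq2 1.33.5 and mm10. Strandedness is not given in the sources used here.

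Of 55774 entries, 287 repeated an identifier and were dropped. Genes were tested with edgeR 4.0.16 in R 4.3.3 (filterByExpr, TMM, glmQLFit and glmQLFTest, two-sided) in 1 fit of 16 samples with a genotype term and no covariate. Benjamini-Hochberg adjustment ran over all 24252 tested genes, with a threshold of 0.05. The SE is the absolute log2 fold change divided by the square root of F. CPM used TMM factors, and log2 CPM a prior count of 2. Positions and exon lengths come from GENCODE M21 (GRCm38). On simulated counts, the test of HER2 mutant against WT was checked to recover the changes put in. The least level told from 0 was taken as 3 counts, and depth limits only Erbb4 and the low neighbours of Erbb2.

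The genes named are the 6 genes, the tested genes around Erbb2, from each pathway list up to 2 called genes with the largest rise and 2 with the largest fall in each comparison (of which the text prints a part), and the 3 genes most like each of the 6, leaving out predicted-gene and Rik names. The 6 genes, the lists and the tests were chosen with earlier results of these data known, and support no independent claim. Alternatives were DESeq2 1.42.0, limma 3.58.1 on log2 of the deposited signal plus 1, other scaling factors, no filter, fits of 2 genotypes, a replicate block, samples left out and longest transcripts as lengths. The alternatives for the neighbours and the pathway genes were added after seeing the data.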

Additional observations from a re-analysis of the deposited data

Results flagged for a closer look

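Grb7 in PIK3CA mutant replicate 1 stood at 80.3 CPM, apart from the other 3 PIK3CA mutant samples at 105 to 108 CPM, with a gap of 0.881 of the group's range, past Dixon's 95% critical value. Errfi1 in double mutant replicate 2 stood at 798 CPM, apart from the other 4 double mutant samples at 275 to 412 CPM, with a gap of 0.738 of the range, also past it. These were 2 of 18 groups of 4 or 5 samples examined, and chance flags about 1 in 20.

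The Grb7 difference that went with the PIK3CA mutation was not the same with and without the HER2 mutation. The interaction was -1.11 on the log2 scale (edgeR adjusted p = 0.0242). It includes WT, the only group from normal breast, so tissue source cannot be told apart from genotype in it. The call was lost in 6 of 16 fits that left out single samples (adjusted p = 0.0522 to 0.0772) and with the replicate number as a block (0.0894).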

How the results depend on the processing

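Over the 6 genes and 7 comparisons, 617 alternative values kept their direction and their side of the threshold, 54 lost a call, 8 gained a call and 17 changed sign without a call in either fit. The sign changes were in Egfr between PIK3CA mutant and WT (-0.0070 to 0.13 on leaving out single samples) and between double mutant and WT (-0.11 to 0.026, and 0.040 with the replicate block), in Errfi1 between HER2 and PIK3CA mutant (-0.17 to 0.49), and in the interactions of Errfi1 (-0.29 to 0.45, and -0.41 without double mutant replicates 2 and 3) and Erbb4 (-0.99 to 0.43, 0.76 with limma, 0.41 with the block and 0.045 without those replicates). Calls of Erbb2 against WT and the PIK3CA mutant, of Erbb3, Erbb4 and Grb7 between double mutant and WT, of Erbb3 and Grb7 between either HER2 genotype and the PIK3CA mutant, and of Egfr between HER2 and PIK3CA mutant held in each alternative. With only the genotypes of a comparison in the fit, 1 gene was called between PIK3CA mutant and WT (Erbb4), 1 between HER2 mutant and WT (Erbb2) and 0 between double and HER2 mutant, where the whole table gave 37 calls and 2487 genes at an unadjusted p under 0.05. Fewer samples estimate the spread in such a fit. DESeq2 called 2 genes for the interaction (Grb7 and Erbb3), and 2 were called without double mutant replicates 2 and 3. On leaving out single samples, counts of called genes ranged from 1 to 5 between HER2 mutant and WT, from 2 to 4 between double and HER2 mutant and from 0 to 2 for the interaction. Between double and PIK3CA mutant the count was 3 in each such fit, against 4 with all samples.

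The Erbb2 difference between double and HER2 mutant was -0.82 with DESeq2 size factors (adjusted p = 0.0501), -0.86 with upper-quartile factors (0.0547), -0.82 with the 2 genotypes alone (0.262) and -0.96 to -0.68 on leaving out single samples. Its interaction was -1.31 without double mutant replicates 2 and 3. The cause was not tested. Of 38 calls of pathway-list genes, 14 held in each alternative. With the longest transcript as length, Grb7 in WT stood at 32.0 in place of 22.8 CPM per kilobase, above Erbb2 (31.2).

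With the replicate number as a block, the double and HER2 mutant comparison gave 0 of the 6 genes (118 calls and 3670 genes at an unadjusted p under 0.05 over the table, against 606 calls without the block), the interaction 0, and Erbb2 between double and HER2 mutant -0.79 (adjusted p = 0.131). Between these genotypes the block gave an adjusted p of 0.0615 for Egfr, 0.115 for Erbb3 and 0.0867 for Grb7. It also ended the calls of Erbb3 between HER2 mutant and WT (0.0658), Erbb4 between double and PIK3CA mutant (0.183) and the Grb7 interaction (0.0894). Same-numbered samples of these 2 genotypes had correlations of their deviations from the genotype means of 0.0711 to 0.273 (mean 0.157), with 4 of 8 samples closest to their own number. Samples of these 2 genotypes with different numbers had a mean of -0.04. In the other comparisons the mean of same-numbered samples was -0.05 to 0.04. The numbers were not taken to pair samples, though for the double and HER2 mutants these values do not settle whether they do.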
